A study of Homo sapiens with 6 samples.

Results

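The genes examined here were the nuclear genes that encode the machinery of oxidative phosphorylation, measured by RNA-seq in Hey and SKOV3, which are established lines of human ovarian cancer cells. They were chosen by symbol (NDUFA, NDUFB, NDUFC, NDUFS, NDUFV, UQCR or ATP5 at the start, SDHA to SDHD, CYC1, and COX4 to COX8 followed by a letter), and by a mean level of at least 1 TPM (a share of the library corrected for transcript length) over the 6 libraries. Of 59008 gene symbols in the table, 96 matched by symbol and 91 also reached the level, out of 14988 genes of any kind that reached it. The level decided who belongs, so it is described and not tested. COX6B2, with a mean TPM of 1.03, and NDUFA4L2, with 1.36, lay just inside it, and UQCRHL (0.0406), ATP5MGL (0.0235), COX4I2, COX6A2 and COX8C (each listed at 0 in every library) lay outside.

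Each line was sequenced in 3 states, with 1 library per state: untreated parental cells, polyploid giant cancer cells (PGCCs) and daughter cells. PGCCs were obtained by exposing the cells to 500 nM paclitaxel, a drug that stabilizes microtubules, for 16 h, followed by recovery in drug-free medium for 3 days, and the daughter cells by the same exposure and 30 days of recovery. The title of the SKOV3 PGCC library gives day 7 while its treatment label gives 3 days, and each daughter library is labelled as 1 clone. Hey was grown in MEM Eagle and SKOV3 in RPMI-1640 medium, so the line and the medium cannot be told apart. Levels are given below in the order parental, PGCC, daughter, for Hey and then for SKOV3.

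The respiratory chain sits in the inner mitochondrial membrane. Complex I takes electrons from NADH and complex II from succinate, complex III passes them to cytochrome c, complex IV reduces oxygen, and complex V uses the proton gradient so formed to make ATP. Complex II is encoded by nuclear genes alone, whereas the other complexes combine nuclear subunits with subunits encoded by the mitochondrial genome. Several subunits of complex IV exist in more than 1 form, with forms typical of muscle, testis or hypoxia.

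The 91 genes comprised 37 complex I subunits, 9 genes grouped as complex I assembly factors (the NDUFAF genes) and the ATP synthase inhibitor ATP5IF1, 4 complex II, 9 complex III, 15 complex IV and 17 complex V subunits. Together they held 1.51%, 1.60% and 1.83% of the summed TPM of the 3 Hey libraries, and between 1.83% (daughter cells) and 2.12% (PGCCs) in SKOV3. Their median TPM was 92.7, 89.8 and 106 in Hey and 133, 135 and 114 in SKOV3. Complex V subunits had the highest group median in every library, between 265 TPM in Hey PGCCs and 401 TPM in SKOV3 parental cells, and the assembly factors with ATP5IF1 the lowest, between 36.0 TPM in SKOV3 daughter cells and 56.0 TPM in SKOV3 parental cells. By mean TPM over the 6 libraries, the leading gene of each complex was NDUFS5 in complex I (495), SDHD in complex II (166), UQCRQ in complex III (363), COX6B1 in complex IV (611) and ATP5MF in complex V (633).

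**Figure D1:**
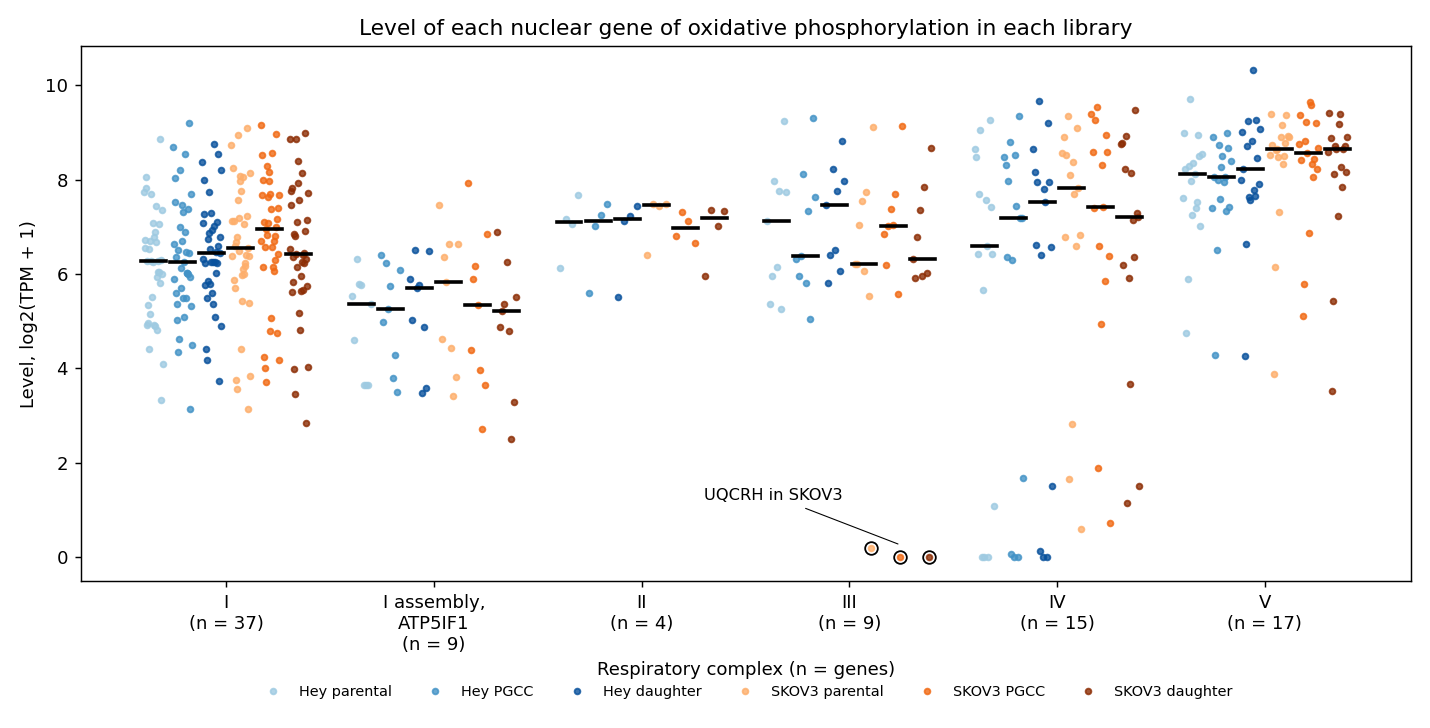
Level of each of the 91 genes, as log2(TPM + 1) on the vertical axis, in each of the 6 libraries (colours), grouped by complex along the horizontal axis; each point is 1 gene in 1 library and each black bar is the median of the group. UQCRH, circled, lies at or near 0 in the 3 SKOV3 libraries, among complex III genes with medians between 73.4 and 176 TPM, and the points near 0 in complex IV are COX6B2, COX7A1, COX7B2 and NDUFA4L2.

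The largest contrast among these genes was between the lines, in UQCRH, the hinge protein of complex III that docks cytochrome c. UQCRH levels were 607, 635 and 447 TPM in Hey, whereas in SKOV3 the parental library had 0.146 TPM and the other two listed the gene at 0. It was among the most abundant respiratory genes in all 3 Hey libraries and close to or at 0 in all 3 SKOV3 libraries. Its difference between the parental cells, as log2(TPM + 1), was 9.05, the largest of all 14988 genes in that direction. Its near-identical relatives were low too: UQCRHL and the pseudogenes UQCRHP1, UQCRHP2, UQCRHP3 and UQCRHP4 had at most 1.15 TPM in any library, a value reached in Hey PGCCs.

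UQCRH lies on the plus strand of chromosome 1 from 46303698 to 46316776 (GRCh38). The start of LRRC41, a leucine-rich repeat gene read in the opposite direction, is 82 bases away. LRRC41 levels were 34.5, 27.1 and 21.0 TPM in Hey and 0.0942, 0.136 and 0.928 TPM in SKOV3, so this neighbour was also low in the 3 SKOV3 libraries. The genes on either side of the pair were present in SKOV3. RAD54L had 14.2, 3.365 and 12.1 TPM in Hey and 20.4, 16.0 and 19.1 TPM in SKOV3. NSUN4 had 5.22, 4.85 and 4.34 TPM in Hey and 1.47, 5.75 and 5.95 TPM in SKOV3. Its difference of Hey minus SKOV3 parental cells was 1.33, so it was also lower in that SKOV3 library. Farther away on the same side, ATPAF1, an assembly factor of ATP synthase, had 65.7, 46.9 and 55.2 TPM in Hey and 81.1, 51.3 and 70.6 TPM in SKOV3. What underlies the low level of the pair was not tested.

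Other forms of complex IV subunits separated the lines as well, in the opposite direction. COX7B2, a relative of COX7B known from testis, was listed at 0 in all 3 Hey libraries and had 95.1, 56.9 and 81.2 TPM in the 3 states of SKOV3. COX7A1, the form of COX7A typical of heart and skeletal muscle, was likewise listed at 0 in Hey and had 6.08, 29.6 and 11.7 TPM in SKOV3. COX6B2, a testis form of COX6B, did not exceed 0.0979 TPM in Hey and had 2.15, 2.68 and 1.21 TPM in SKOV3. The common forms were present in both lines: COX7B had 95.8, 172 and 183 TPM in Hey and 207, 170 and 141 TPM in SKOV3, and COX7A2 had 190.0, 367 and 223 TPM and 333, 315 and 280 TPM. NDUFA4L2, the hypoxia-linked relative of the complex IV subunit NDUFA4, was low in every library, at 1.12, 2.21 and 1.83 TPM in Hey and 0.502, 0.647 and 1.84 TPM in SKOV3.

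Between the parental cells, 3 of the 91 genes were at least 2-fold higher in Hey, against 11.5% of all genes, and 16 were at least 2-fold lower in Hey, against 24.2% of all genes. UQCRH, among the 3, and COX7B2, COX7A1 and COX6B2, among the 16, had reached the mean level through 1 line alone. These counts are therefore a description and are not read as a result. The median difference of Hey minus SKOV3 was -0.38 over the 91 genes and -0.29 over all genes tested. Once a trend in GC content and transcript length was subtracted, an alternative described with SKOV3 PGCCs, the median of the 91 genes was 0.03 instead. That step also centres all annotated genes near 0, and their median was then 0.02. With median-ratio scaling the medians were -0.07 over the 91 genes and -0.01 over all genes. No direction is therefore given to the group as a whole. The 3 higher genes were UQCRH, NDUFA9 (1.60), an accessory subunit of complex I, and ATP5MC2 (1.06), which encodes a precursor of subunit c of ATP synthase. Among the 16 lower genes, the largest differences after COX7B2 and COX7A1 were those of COX6C (-2.45), a small structural subunit of complex IV, ATP5IF1 (-1.93), and ATP5PF (-1.92), the coupling factor of the ATP synthase stalk.

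The limma fit over all 6 libraries, with state and line as terms, allowed a test of the line, in which the 3 states of a line stand in for replicates. Of the 91 genes, 8 passed an adjusted p of 0.05, against 20.6% of all 14988 genes. Of the 8, UQCRH, COX7B2 and COX7A1 had reached the mean level through 1 line alone, so their levels stand as a description with no p, and the count is not read as a result. NDUFA9 was 1.63 higher in Hey (adjusted p = 0.02373 by limma). NDUFB2, an accessory subunit of complex I, was lower in Hey by a fitted difference of -1.81 (adjusted p = 0.006978 by limma). The other genes that passed, all lower in Hey, were the inhibitor ATP5IF1 (-1.49), the complex I subunit NDUFA6 (-1.43) and the complex III subunit UQCRQ (-1.19).

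Promoter windows from RefSeq (GRCh38.p14), from 250 bases before to 50 bases after the annotated start, were available for 74 of the 91 genes. They were searched on both strands for 4 short words of factors known to act on respiratory genes: GCATGCG for NRF1, CCGGAAG for ETS factors such as GABP, AAGGTCA for the estrogen-related receptors and AAGATGG for YY1. The ETS and YY1 words can share bases, and the NRF1 word can occur on both strands in overlapping bases. The NRF1 word was in 20.3% of the 74 windows and in 4.13% of all 27305 windows. The share was 28.4% against 10.7% for the ETS word, 12.2% against 3.97% for the estrogen-related receptor word and 21.6% against 6.06% for the YY1 word. At least 1 of the 4 words was in 41 of the 74 windows (55.4%), against 22.3% of all windows. Over the 10610 windows whose gene reached a mean of 1 TPM, the shares were 6.52% for the NRF1 word, 19.5% for the ETS word, 2.44% for the estrogen-related receptor word, 7.63% for the YY1 word and 31.5% for at least 1 of them. The shares describe letters in windows and not bound sites.

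These 4 windows are shown, 5′ to 3′ in the direction of the gene, with the words in capitals. UQCRH (chr1:46303448-46303747, plus strand) is shown for its contrast between the lines, and its window also spans the start of LRRC41. SDHB (chr1:17053983-17054282, minus strand) held all 4 words, and NDUFS7 (chr19:1383657-1383956, plus strand), the complex I gene with the largest difference in SKOV3 PGCCs, held 3 of the 4. COX7B2 (chr4:46909196-46909495, minus strand), listed at 0 in Hey, held none.
UQCRH: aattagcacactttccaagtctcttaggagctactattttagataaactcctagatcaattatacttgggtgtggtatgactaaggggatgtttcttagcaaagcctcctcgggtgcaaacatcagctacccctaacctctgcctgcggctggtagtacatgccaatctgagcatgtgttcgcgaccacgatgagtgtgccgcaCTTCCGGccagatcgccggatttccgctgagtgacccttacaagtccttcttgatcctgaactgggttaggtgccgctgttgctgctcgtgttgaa
SDHB: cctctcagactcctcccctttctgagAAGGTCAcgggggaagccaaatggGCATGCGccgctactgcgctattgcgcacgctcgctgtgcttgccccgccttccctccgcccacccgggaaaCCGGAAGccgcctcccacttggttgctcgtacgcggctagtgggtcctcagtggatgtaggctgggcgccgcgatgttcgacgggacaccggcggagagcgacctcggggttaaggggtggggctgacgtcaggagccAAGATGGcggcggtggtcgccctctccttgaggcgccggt
NDUFS7: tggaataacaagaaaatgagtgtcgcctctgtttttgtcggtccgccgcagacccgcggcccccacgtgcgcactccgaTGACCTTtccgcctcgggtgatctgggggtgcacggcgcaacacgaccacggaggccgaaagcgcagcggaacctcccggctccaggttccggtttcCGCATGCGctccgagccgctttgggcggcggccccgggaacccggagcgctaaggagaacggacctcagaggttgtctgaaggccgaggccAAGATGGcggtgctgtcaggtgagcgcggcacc
COX7B2: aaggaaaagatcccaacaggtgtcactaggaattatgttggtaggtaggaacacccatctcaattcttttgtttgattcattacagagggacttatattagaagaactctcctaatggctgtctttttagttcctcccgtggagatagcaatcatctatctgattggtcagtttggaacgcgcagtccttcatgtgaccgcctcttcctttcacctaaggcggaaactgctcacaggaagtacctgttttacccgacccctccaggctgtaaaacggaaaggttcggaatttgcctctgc

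In Hey, the 91 genes as a group stayed close to parental levels in PGCCs. The median difference of PGCCs minus parental cells was 0.06 over the 91 genes and 0 over all genes, and it ran from -0.07 to 0.21 over the alternative scalings and the removed trend, so its sign rests on these choices. Because each state is 1 library, a difference between 2 libraries has no replicate error, and a 2-fold difference (1 on the log2 scale) is used here as a description of size. In bulk RNA, fewer cells of a kind and less RNA per cell cannot be told apart.

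At least 2-fold higher in Hey PGCCs were 2 of the 91 genes, against 7.67% of all genes, and none was 2-fold lower, against 5.22%. NDUFB9, an accessory subunit of the membrane arm of complex I, had levels of 173, 375 and 432 TPM in the Hey states, and the PGCC difference was 1.11. ATP5MD, a small membrane subunit of ATP synthase now named ATP5MK, had 152, 306 and 190 TPM, a PGCC difference of 1.01. Both genes were above the parental level in both later states of Hey. Just under the limit were COX7A2 (0.95) and NDUFA1 (0.94) on the higher side, and ATP5MC2 (-0.98), which went from 835 TPM in parental cells to 423 TPM in PGCCs and 604 TPM in daughter cells. The lowest differences of complexes I and III in Hey PGCCs were those of NDUFV1 (-0.68) and CYC1 (-0.79), which encodes cytochrome c1.

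SKOV3 PGCCs showed a wider spread around a similar median, among the 91 genes and among all genes. The quartiles of the 91 genes were -0.29 and 0.43, against -0.20 and 0.42 in Hey. Over all genes they were -0.39 and 0.54, against -0.35 and 0.38 in Hey. The median difference of PGCCs minus parental cells was 0.03 over the 91 genes and 0.02 over all genes. At least 2-fold higher were 7 genes, against 9.94% of all genes, and at least 2-fold lower were 3, against 4.96%. Of the 7 higher genes, 5 encode complex I subunits, which make up 37 of the 91 genes. NDUFS7, which carries an iron-sulfur cluster, had levels of 7.82, 26.1 and 6.13 TPM, a PGCC difference of 1.62. NDUFV1, the subunit that binds NADH, had 40.6, 84.4 and 52.9 TPM, a difference of 1.04. Both genes were lower, not higher, in PGCCs of Hey, where NDUFS7 had 9.06, 7.75 and 12.4 TPM and NDUFV1 had 63.3, 39.2 and 86.0 TPM.

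The other complex I genes past 2-fold in SKOV3 PGCCs were NDUFB7 (1.41) and NDUFA11 (1.39), both accessory subunits, and NDUFS8 (1.02), an iron-sulfur subunit. ATP5F1D, the delta subunit of the ATP synthase motor, had 13.7, 33.4 and 10.5 TPM, a difference of 1.23. The muscle form COX7A1 had the largest difference of the group (2.11). On the lower side were COX6C, with 274, 95.9 and 59.2 TPM (-1.51), the complex I subunit NDUFA5, with 51.2, 18.0 and 55.9 TPM (-1.46), and the complex I assembly factor NDUFAF4, with 98.1, 39.6 and 74.8 TPM (-1.29). NDUFA5 and NDUFAF4 were again higher in daughter cells, while COX6C was lower still. COX6C has 17 pseudogene rows in the table, which reached at most 7.49% of its own level in a library.

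In SKOV3, the difference between PGCCs and parental cells followed the GC content of the transcript. Spearman's correlation between the 2 was 0.79 across the 91 genes and 0.72 across 13632 genes with annotation, while in Hey it was -0.26 and -0.05. These are correlations across genes of the same pair of libraries, and genes are not independent replicates. In the third of the 91 genes with the highest GC content (52.8% to 69.6%, 30 genes), the SKOV3 median was 0.59, 29 genes were above 0, and all 7 genes past 2-fold upwards belonged to it. In the third with the lowest (34.6% to 44.4%, 31 genes), the median was -0.33, 5 genes were above 0, and all 3 genes past 2-fold downwards belonged to it.

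Once a smooth trend in GC content and length was subtracted, 1 of the 91 genes was past 2-fold upwards in SKOV3 PGCCs (COX7A1), against 2.25% of 13632 genes, and 1 downwards (COX6C), against 2.63%. The respiratory genes have short transcripts, with a median length of 804 bases against 3134 bases for all annotated genes, and a like GC content, with a median of 47.0% against 47.7%.

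**Figure D2:**
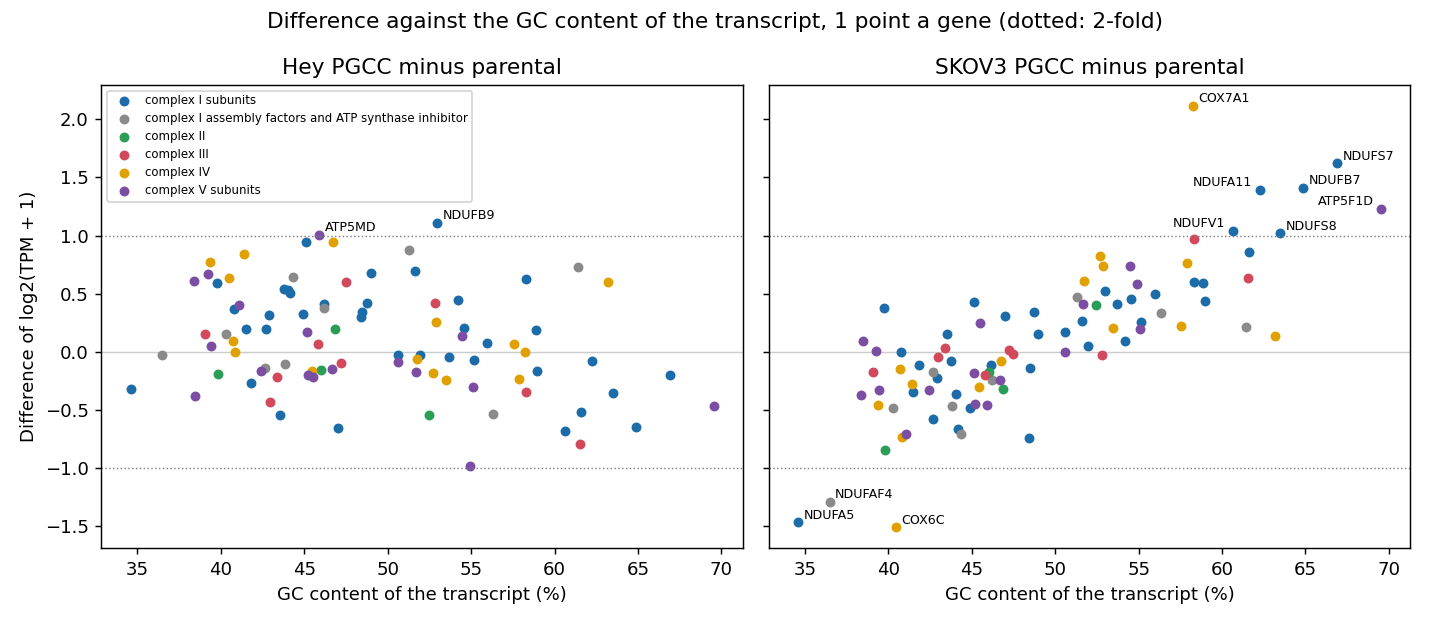
Difference of log2(TPM + 1) between PGCCs and parental cells (vertical axis) against the GC content of the transcript in percent (horizontal axis), in Hey (left) and SKOV3 (right), 1 point per gene, coloured by complex, with dotted lines at 2-fold and the genes past them named. In SKOV3 the points climb from left to right (Spearman's correlation 0.79, n = 91), with NDUFA5, NDUFAF4 and COX6C at the low end and NDUFS7, NDUFB7 and ATP5F1D at the high end, while in Hey they do not (-0.26).

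The PGCC differences of the 2 lines did not share a direction in most genes. In 18 of the 91 genes PGCCs were above parental cells in both lines, in 13 below in both, and in 58 the lines went opposite ways, so the same direction was seen in 34.1% of the genes, against 47.5% of all genes. Pearson's correlation between the lines was -0.30 and Spearman's -0.32 across the 91 genes, and -0.005 and -0.02 across all genes. None of the 91 genes was past 2-fold in the same direction in both lines in any of the 3 comparisons between states. Of all genes, such a shared difference was seen in 1.67% for PGCCs against parental cells, 2.29% for daughter cells against PGCCs and 1.57% for daughter cells against parental cells. At 1.5-fold, 1 gene was higher in PGCCs of both lines, against 3.30% of all genes, namely the complex I subunit NDUFS6 (0.63 in Hey and 0.60 in SKOV3). In the limma fit of PGCCs against parental cells over both lines, 0 of the 91 genes passed an adjusted p of 0.05 and 0 had an unadjusted p under 0.05, against 0.02% (3 genes) and 2.73% of all genes. This fit has 2 residual degrees of freedom and averages over the lines, so opposite differences in Hey and SKOV3 cancel in it.

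**Figure D3:**
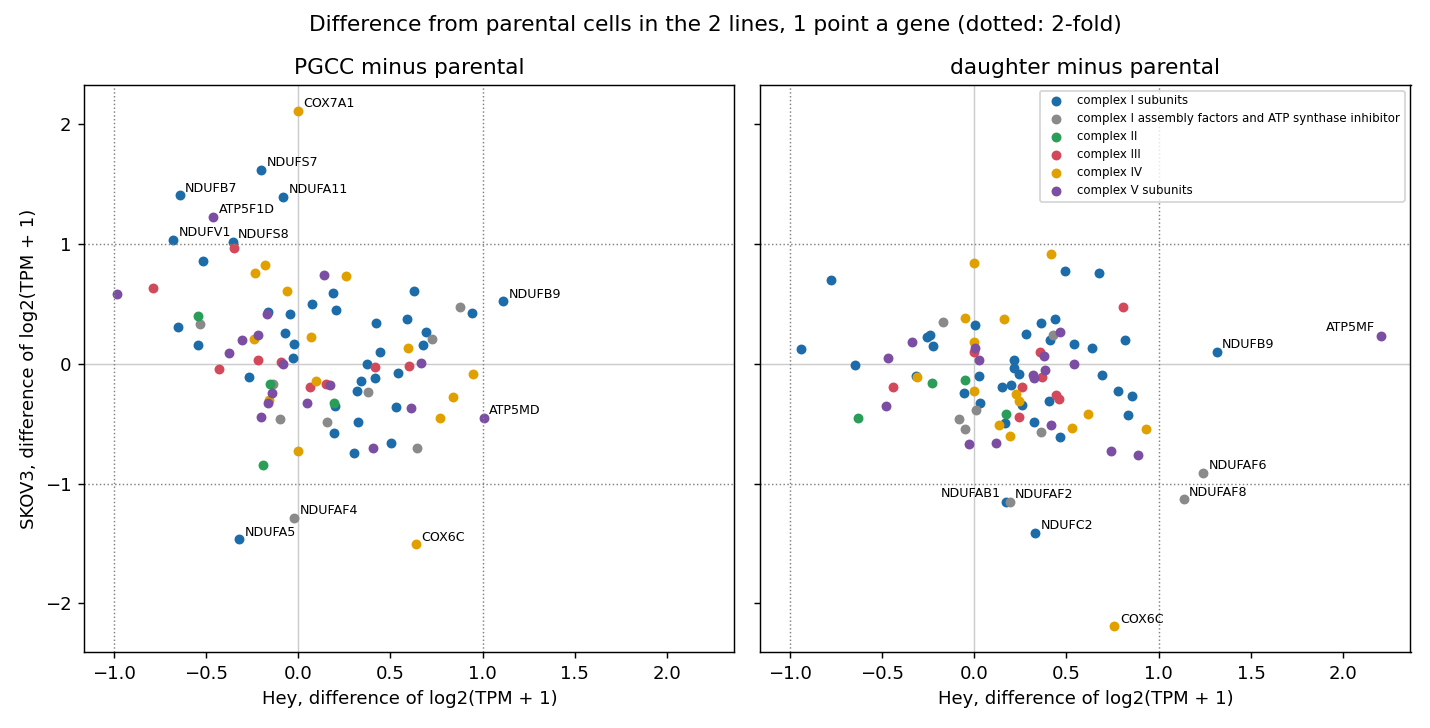
Difference of log2(TPM + 1) from parental cells in Hey (horizontal axis) against SKOV3 (vertical axis), for PGCCs (left) and daughter cells (right), 1 point per gene, coloured by complex, with dotted lines at 2-fold. No gene lies beyond the dotted lines in the upper right or lower left corner of either panel, and NDUFAF8 alone lies beyond them in opposite directions, in daughter cells.

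From PGCCs to daughter cells, the lines diverged. In Hey the median difference of daughter cells minus PGCCs was 0.10 over the 91 genes and 0.03 over all genes, and in SKOV3 it was -0.21 and 0.12. Under the alternative scalings and with the trend removed the Hey median lay between 0.03 and 0.10 and the SKOV3 median between -0.33 and -0.09, so neither changed sign. In limma over both lines, 0 of the 91 genes passed an adjusted p of 0.05 and 0 had an unadjusted p under 0.05, against 0% and 5.06% of all genes.

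In Hey, 5 genes were at least 2-fold higher in daughter cells than in PGCCs, against 9.95% of all genes, and none was 2-fold lower, against 8.13%. ATP5MF (2.37), the f subunit in the membrane part of ATP synthase, stood apart from the others. CYC1 had 138, 79.2 and 176 TPM, a difference of 1.14 from PGCCs to daughter cells. UQCRFS1, the Rieske iron-sulfur protein of complex III, had 37.1, 31.8 and 65.6 TPM (1.02). NDUFA9 (1.24) and NDUFV1 (1.11) completed the set. This comparison shares the Hey PGCC library with that of PGCCs and parental cells.

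In SKOV3, 1 gene was at least 2-fold higher in daughter cells than in PGCCs, against 14.6% of all genes, and 12 were at least 2-fold lower, against 9.25%. The higher gene was NDUFA5 (1.59). In complex I the lower genes were NDUFS7 (-1.93), NDUFB7 (-1.42), NDUFA11 and NDUFC2 (each -1.05), and in complex III UQCRC1 (-1.08), a core protein. In complex IV they were COX8A (-1.30), COX7A1 (-1.28), COX5B (-1.21) and COX6A1 (-1.05). ATP5F1D (-1.58), the assembly factor NDUFAF8 (-1.34) and the inhibitor ATP5IF1 (-1.05) were the others, and complex II had none. Of the 12, 9 were in the third with the highest GC content, and this comparison shares the SKOV3 PGCC library with the comparison to parental cells. With the GC and length trend removed, NDUFS7 and NDUFC2 were past 2-fold downwards, against 7.23% of 13632 genes, and NDUFA4L2 upwards, against 10.5%, and the median over the 91 genes was -0.22.

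COX8A, a small complex IV subunit and one of the 12, had 170, 144 and 245 TPM in Hey and 225, 383 and 155 TPM in SKOV3, so its highest library was the daughter cells in Hey and the PGCCs in SKOV3. ATP5IF1, which binds ATP synthase and blocks ATP hydrolysis, had 45.3, 84.0 and 58.4 TPM in Hey and 176, 244 and 118 TPM in SKOV3. It was higher in PGCCs than in parental cells and daughter cells of both lines, by less than 2-fold against parental cells (0.88 in Hey and 0.48 in SKOV3).

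Compared with parental cells, daughter cells of Hey were higher in most of the 91 genes and those of SKOV3 were lower in most. In Hey, 67 genes were above and 22 below the parental level, against 8084 and 6255 of all 14988 genes. The Hey median was 0.24 against 0.05 for all genes. In SKOV3, 35 were above and 56 below, against 8812 and 5979 of all genes. The SKOV3 median was -0.12 against 0.15 for all genes. Under the same alternatives the Hey median lay between 0.12 and 0.33 and the SKOV3 median between -0.32 and -0.02. In limma over both lines, 0 of the 91 genes passed an adjusted p of 0.05 and 0 had an unadjusted p under 0.05, against 0.0133% (2 genes) and 3.39% of all genes.

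In Hey, 4 genes were at least 2-fold higher in daughter cells than in parental cells, against 6.31% of all genes, and none was 2-fold lower, against 3.73%. ATP5MF levels were 276, 245 and 1275 TPM in Hey, against 570, 760 and 670 TPM in SKOV3. The Hey daughter library held the highest value of any respiratory gene in the 6 libraries, and its difference from parental cells was 2.20. NDUFB9 (1.32) and the complex I assembly factors NDUFAF6 (1.24) and NDUFAF8 (1.14) were the others. NDUFAF6 had 11.5, 18.5 and 28.5 TPM in Hey and 9.69, 5.56 and 4.69 TPM in SKOV3, so the order of the states was opposite in the 2 lines.

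In SKOV3, none of the 91 genes was at least 2-fold higher in daughter cells than in parental cells, against 15.1% of all genes, and 5 were at least 2-fold lower, against 6.34%. COX6C had the largest difference (-2.19). NDUFC2, an accessory subunit of the membrane arm of complex I, had 133, 104 and 49.5 TPM in the 3 states (-1.41). Reads of NDUFC2 can be shared with the readthrough gene NDUFC2-KCTD14, which had 8.75, 8.66 and 0.464 TPM. NDUFAB1 (-1.16), the mitochondrial acyl carrier protein, and the assembly factors NDUFAF2 (-1.15) and NDUFAF8 (-1.13) were the others.

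ATP5MF lies on the minus strand of chromosome 7 from 99448475 to 99466186 (GRCh38), in a stretch where many genes were higher in daughter cells. All 17 other expressed genes (mean of 1 TPM or more) that start between -0.6 and 0.5 Mb from it were at least 2-fold higher in daughter cells than in parental cells of Hey, with a median of 1.94. They include the readthrough gene ATP5MF-PTCD1, with which reads of ATP5MF can be shared. In the same window of SKOV3, 3 of 17 were 2-fold higher, with a median of 0.66. Of all genes, 6.31% were 2-fold higher in Hey daughter cells than in parental cells, and 15.1% in SKOV3 daughter cells. Between 0.5 and 3 Mb, 3 of 40 genes were 2-fold higher in Hey (median 0.46) and 17 of 40 in SKOV3 (median 0.93). Between -13 and -0.5 Mb, 36 of 52 were 2-fold higher in Hey (median 1.38) and 25 of 52 in SKOV3 (median 0.91), so only the 17 nearest genes and those of the -13 to -0.5 Mb stretch had the higher median in Hey. In PGCCs of Hey the 17 nearest genes had a median of -0.06 against parental cells, and none was 2-fold higher. The limits of these windows were chosen after the values were seen. The windows overlap between -0.6 and -0.5 Mb, so TRRAP, at -0.57 Mb, is counted on both sides.

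Around the other genes past 2-fold in daughter cells against parental cells, the medians were smaller. Among the genes that start within 1 Mb, the median in Hey daughter cells was 1.26 around ATP5MF itself (34 genes). It was 0.17 around NDUFB9 (11 genes), 0.31 around NDUFAF6 (9) and -0.07 around NDUFAF8 (41). In SKOV3 daughter cells it was -0.11 around COX6C (9 genes), 0.14 around NDUFC2 (14), 0.004 around NDUFAB1 (9), -0.04 around NDUFAF2 (6) and 0.15 around NDUFAF8 (41). Around UQCRFS1 (5 genes) the median was 0.83 against parental cells and 0.69 against PGCCs in Hey daughter cells. For the genes past 2-fold in SKOV3 PGCCs, the medians ran from -0.63 around NDUFA5 (2 genes) to 1.02 around ATP5F1D (54 genes). Over the 83 respiratory genes with at least 5 such neighbours, a gene's difference and the median of its neighbours had a Spearman's correlation of 0.45 in Hey daughter cells and 0.19 in SKOV3 daughter cells against parental cells, and 0.51 in SKOV3 PGCCs but 0.06 in Hey PGCCs. These are descriptions across genes of the same pair of libraries, and neighbours can share base composition as well as position. What underlies the difference around ATP5MF was not tested.

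**Figure D4:**
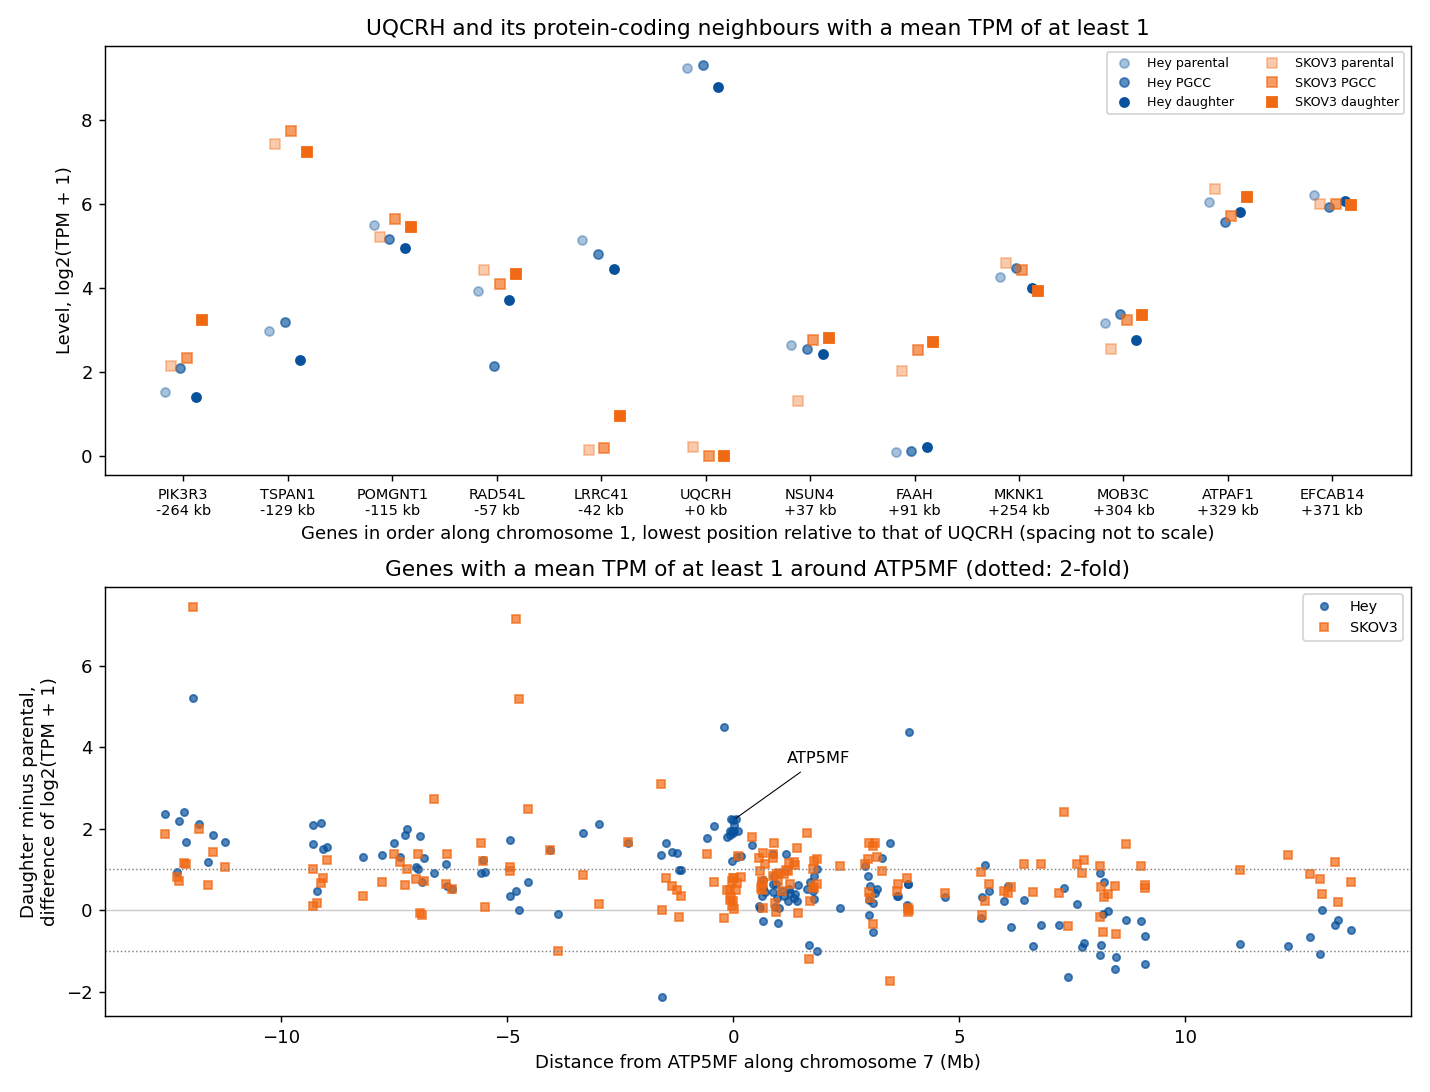
Top: level as log2(TPM + 1) (vertical axis) of UQCRH and its protein-coding neighbours in their order along chromosome 1 (horizontal axis, spacing not to scale), in Hey (circles) and SKOV3 (squares), with the 3 states from light to dark; UQCRH and LRRC41 are the genes that are high in Hey and at or near 0 in SKOV3. Bottom: difference of log2(TPM + 1) between daughter and parental cells (vertical axis) of genes around ATP5MF against the distance in Mb (horizontal axis); in Hey (circles) all 17 genes between -0.6 and 0.5 Mb lie above the dotted 2-fold line.

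By complex, the medians in PGCCs were small in both lines. For complex I subunits the median was 0.20 in Hey, with 22 of 37 above 0, and 0.26 in SKOV3, with 24 above 0. Of all 14988 genes, 7489 were above 0 in Hey PGCCs and 7661 in SKOV3 PGCCs. Complex III (-0.09 and -0.02) and complex V (-0.14 and -0.005) were close to 0. Complex IV had 0.07 and 0.13. The assembly factors with ATP5IF1 had 0.16 in Hey and -0.24 in SKOV3. In SKOV3 daughter cells 7 of the 9 were below parental cells, with a median of -0.54, against 5979 of all 14988 genes below.

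Complex II, the succinate dehydrogenase shared with the citric acid cycle, had no gene past 2-fold in any state. SDHB, its iron-sulfur subunit, had 142, 128 and 138 TPM in Hey and 178, 158 and 162 TPM in SKOV3, within 0.32 of each other on the log2 scale for the compared pairs of libraries. SDHA, the flavoprotein subunit, had 69.3, 47.2 and 44.5 TPM in Hey and 83.9, 111 and 60.9 TPM in SKOV3. Its values are uncertain because its pseudogene rows reached 43.8% of its level in a library. The membrane anchor SDHD went from 179 to 99.2 TPM in SKOV3 PGCCs (-0.84) and to 160 TPM in daughter cells, and in Hey it had 204, 178 and 174 TPM.

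The 3 genes that encode the same mature subunit c of ATP synthase were all lower in Hey PGCCs, by unlike amounts. There ATP5MC2 had a difference of -0.98, ATP5MC3 -0.38 and ATP5MC1 -0.30. In SKOV3 PGCCs the differences were 0.58, 0.09 and 0.20.

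Transcripts of the 13 subunits encoded by the mitochondrial genome moved apart from the nuclear genes. In Hey PGCCs all 13 were at least 2-fold above parental cells, against 7.67% of all genes. Their median was 2.28, whereas the median of the 91 nuclear genes was 0.06. In SKOV3 PGCCs none of the 13 was past 2-fold, against 9.94% of all genes higher and 4.96% lower, and their median was -0.07. From PGCCs to daughter cells the median of the 13 was -0.61 in Hey and 0.98 in SKOV3, opposite in sign to the nuclear medians in both lines. Part of this opposition is built into TPM, where a larger mitochondrial share lowers all other values. With mitochondrial genes left out, the nuclear medians were nearer 0, at 0.03 in Hey and -0.09 in SKOV3, against 0 and 0.23 over all genes. For daughter cells against parental cells, the median of the 13 was 1.69 in Hey and 0.76 in SKOV3, so above 0 in both lines. The ratio of the summed TPM of the 13 to that of the 91 was 1.60, 6.89 and 3.94 in the Hey libraries and 4.42, 3.30 and 7.70 in the SKOV3 libraries. Mitochondrial genes of all kinds took between 2.64% of the TPM (Hey parental cells) and 14.8% (SKOV3 daughter cells), and since TPM is a share of the library, this lowers the TPM of every other gene; leaving them out moved the median of all genes to 0.12 in Hey PGCCs.

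**Figure D5:**
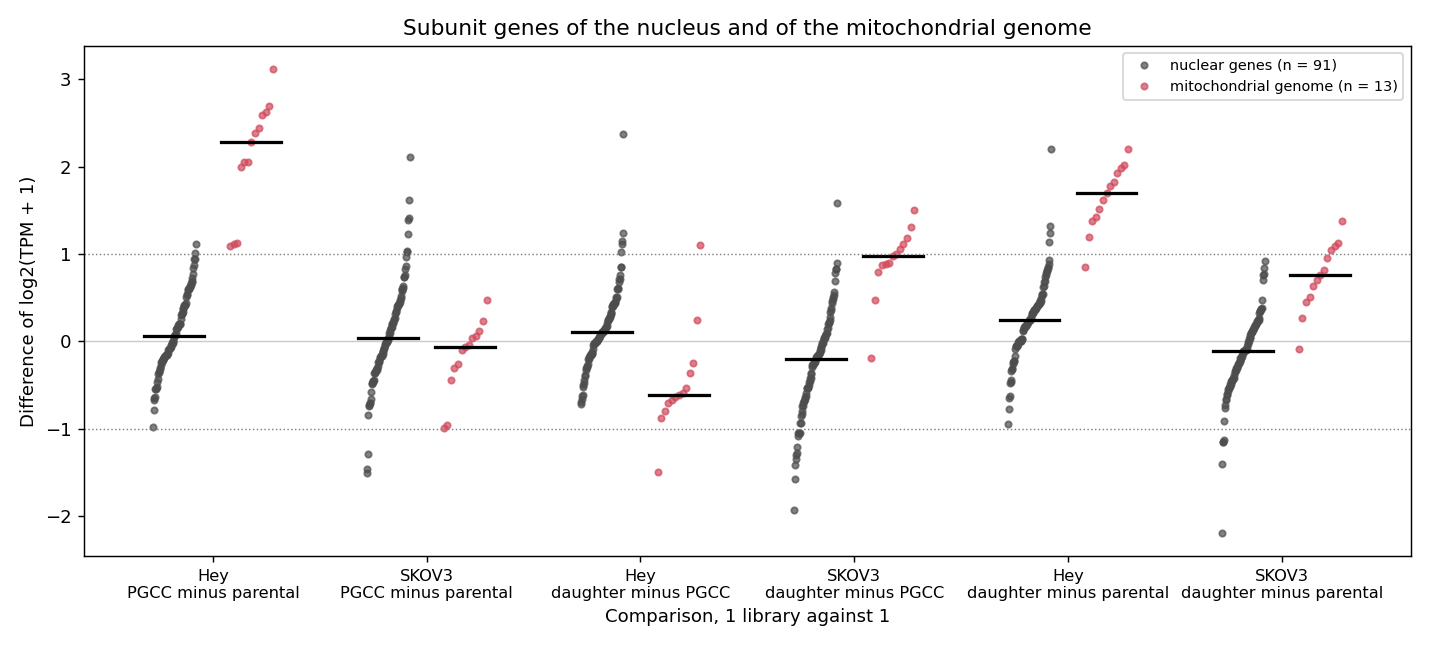
Difference of log2(TPM + 1) (vertical axis) in the 6 comparisons between states (horizontal axis), for the 91 nuclear genes (grey) and the 13 subunit genes of the mitochondrial genome (red), each point 1 gene and each black bar a median. In Hey PGCCs the red points all lie above the 2-fold line (median 2.28) while the grey median is 0.06, and in SKOV3 daughter cells the red median is above 0 and the grey below 0 against both earlier states.

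Other genes of the pathway were counted from lists outside the symbol rule. For their counts past 2-fold, the shares of all genes were 7.67% higher and 5.22% lower in Hey PGCCs. In SKOV3 PGCCs the shares were 9.94% higher and 4.96% lower. Of 39 expressed assembly factors, 1 was 2-fold higher and 1 lower in Hey PGCCs (TMEM126B, 1.42, and ECSIT, -1.37, both of complex I assembly), and 1 was higher and 2 lower in SKOV3 PGCCs, with medians of 0.08 and 0.10. SDHAF3, an assembly factor of complex II, was 1.65 above parental cells in Hey daughter cells and 1.68 in SKOV3 daughter cells, and was singled out after its values were seen. It lies -2.33 Mb from ATP5MF, inside the stretch of chromosome 7 described above, where genes were higher in daughter cells of both lines. Of 12 expressed transcription regulators of respiratory genes, none was 2-fold higher and 1 lower in Hey PGCCs, which was POLRMT (-1.50), the mitochondrial RNA polymerase. In SKOV3 PGCCs 2 were higher, POLRMT (1.03) and the receptor ESRRA (1.12), and 1 lower, YY1 (-1.25). These SKOV3 values come from the pair of libraries whose differences followed GC content, and that trend is not removed from them. All 14 citric acid cycle genes were below parental cells in Hey PGCCs, none by 2-fold (median -0.43), against 7123 of all 14988 genes below. In SKOV3 PGCCs 8 of 14 were above (median 0.23), against 7661 of all genes. CYCS, which encodes the cytochrome c that links complexes III and IV, had 176, 183 and 203 TPM in Hey and 186, 94.9 and 212 TPM in SKOV3.

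Of 8 markers of epithelial and ovarian carcinoma cells, 4 were present in every library: KRT8 between 319 and 1052 TPM, KRT18 between 220.4 and 672 TPM, KRT7 between 312 and 930 TPM and PAX8 between 54.7 and 136 TPM. The other 4 were low or uneven. EPCAM did not exceed 1.43 TPM in Hey and had 68.8, 43.6 and 8.15 TPM in SKOV3, MUC16 did not exceed 1.59 TPM and WT1 4.10 TPM in any library. MSLN had 21.5, 23.3 and 0.386 TPM in Hey and 33.1, 46.1 and 1.85 TPM in SKOV3, so it was lower in the daughter cells of both lines. Of 6 markers of other cell types, PTPRC, PECAM1, VWF and COL1A2 stayed below 1 TPM in every library, CD68 was between 0.840 and 69.3 TPM, and COL1A1 reached 16.3 TPM in SKOV3 daughter cells. Their part in the respiratory differences was not tested.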

How the data were processed

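The authors quantified the reads with Salmon 0.14.1 against the human transcriptome (hg38), and deposited 1 table of gene-level TPM with 1 column per library; the submitters' processing notes also name fastp, with no version or role. TPM is scaled within a library, and the table holds no counts, so no counting error was computed; the study's methods give similar mapped totals for the libraries. Differences were taken on log2(TPM + 1) for the 14988 genes whose mean over the libraries reached 1 TPM, and 2-fold (a difference of 1) was the limit for counts. limma 3.58.1 (R 4.3.3) was fitted to the same genes in all 6 libraries, with terms for state and line, an eBayes trend and Benjamini-Hochberg adjustment. The test of the line was added after seeing the data. The libraries are 1 per state and line, nothing in the labels gives separate cultures, and p-values measure only the spread between these libraries. Tables and figures were made with Python 3.11.15 and matplotlib 3.10.9, and the counting and the limma fit were tested on simulated data.

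Positions, GC content and length come from GENCODE release 44 (GRCh38), matched by symbol for all 91 genes and for 13632 of 14988 genes, with older symbols resolved through RefSeq. The trend in GC content and log length was removed by lowess (fraction 0.3, 2 passes). Promoter windows are from RefSeq (GRCh38.p14). Alternatives were a pseudocount of 0.1, no filter on low values, mitochondrial genes left out, median-ratio scaling, a 1.5-fold limit, the removed trend, and limma without the line term or without trend.

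The genes and lists were chosen with earlier results of these data known. Genes were named by a rule: the most abundant of each group, the largest and smallest differences of each group in PGCCs and from PGCCs to daughter cells, alternative forms of a subunit, ATP5IF1, and the 5 largest differences between the parental lines each way. Other genes past 2-fold or in limma were named after their values were seen.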

Additional observations from a re-analysis of the deposited data

Results flagged for a closer look

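NDUFAF8, an assembly factor of complex I, was past 2-fold in opposite directions in daughter cells of the 2 lines. The difference of daughter minus parental cells was 1.14 in Hey, where the parental, PGCC and daughter libraries had 40.0, 66.8 and 89.0 TPM, and -1.13 in SKOV3, where they had 98.4, 114 and 44.3 TPM. It was the only gene of the 91 to do so in the 3 comparisons between states, against 217 of all 14988 genes in this comparison. With 1 library per state, the difference between the lines was not tested.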

How the results depend on the processing

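Over 58 differences past 2-fold, none changed sign under the alternatives: a pseudocount of 0.1 kept 58, leaving out mitochondrial genes kept 50, median-ratio scaling 47 and removal of the GC and length trend 26. The limma count stayed at 0 in the comparisons between states under every limma alternative, and lay between 8 and 10 for the line. Values that moved were these, and the cause was not tested unless named.

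With a pseudocount of 0.1, genes higher in SKOV3 daughter cells were 2 against PGCCs and 1 against parental cells. With mitochondrial genes left out, Hey PGCCs had 6 higher genes and a median of 0.211, SKOV3 daughter cells against PGCCs had 2 higher and 7 lower genes and a median of -0.0943, and the parental lines (Hey minus SKOV3) a median of -0.495. With median-ratio scaling, Hey PGCCs had 1 higher and 1 lower gene, Hey daughter cells against parental cells 1 lower gene and a median of 0.116, SKOV3 daughter cells medians of -0.333 against PGCCs and -0.325 against parental cells, and the parental lines 7 higher and 9 lower genes and a median of -0.0652.

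With the GC and length trend removed, which by construction takes out what follows GC content, Hey PGCCs had 0 higher and 1 lower gene and a median of -0.0666, SKOV3 PGCCs 1 higher and 1 lower, Hey daughter cells 3 higher against PGCCs and a median of 0.133 against parental cells, and SKOV3 daughter cells 2 lower against PGCCs. The median between the parental lines changed sign, to 0.0315, with 8 genes higher and 9 lower. The median of all annotated genes was then 0.0169, since removing the trend also centres them near 0. At 1.5-fold, genes higher and lower were 18 and 5 in Hey PGCCs (against 17.1% and 14.4% of all genes), 17 and 9 in SKOV3 PGCCs (22.9% and 16.3%), 14 and 5 from PGCCs to daughter cells in Hey (22.0% and 17.2%), 6 and 26 in SKOV3 (28.0% and 18.7%), 17 and 4 in Hey daughter cells against parental cells (17.2% and 10.7%), 5 and 12 in SKOV3 (28.1% and 13.6%), and 9 and 35 between the parental lines (18.5% and 38.1%).

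With 1 library per state, the spread between cultures is not known, the table holds no counts from which the error of a low TPM could be taken, and a gene listed at 0 may be unmeasured. Without a filter on low values, UQCRHL and ATP5MGL joined the group and no count of genes past 2-fold moved by over 1.5 times. No library could be left out of a comparison of 1 library with 1.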
